A study of Homo sapiens with 24 samples.

Results

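Inflammatory chemokine ligands are small secreted proteins that draw leukocytes along a gradient, and 9 of their genes, out of 20045 named on the array, were followed here across 2 human myeloma lines. The members were taken by gene symbol, as every probe annotated to CCL3, CCL3L1, CCL3L3, CCL4, CCL4L1, CCL5, CXCL10, CXCL13 or CXCL16. The 9 genes had 14 of the 47224 probes on each array. RNA was hybridised to 24 Illumina HumanHT-12 arrays in 8 groups of 3, of which 4 groups form a dexamethasone (Dex) experiment and 4 a transfection experiment. MM1S is a myeloma line that responds to glucocorticoids, and MM1R was obtained from MM1S under prolonged Dex and tolerates it, so the lines compare 1 derived clone with its parent. The 8 groups were MM1R cells with Dex (1 µM for 72 h), untreated MM1R cells, MM1S cells with Dex, untreated MM1S cells, MM1R cells with a mir-150-5p mimetic (a synthetic microRNA, 150 nM for 72 h, brought in by electroporation), mock-electroporated MM1R cells, MM1S cells with the mimetic, and mock-electroporated MM1S cells. The study's methods describe the RNA as coming from 3 independent experiments.

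As background, chemokines act through receptors of the G protein-coupled class. CCL3, its copies CCL3L1 and CCL3L3, CCL4, its copy CCL4L1, and CCL5 are CC chemokines that attract monocytes and T cells, and CCL3 and CCL5 bind CCR1. CXCL10 is the interferon-induced ligand of CXCR3, CXCL13 is the B cell attractant that binds CXCR5, and CXCL16 is a membrane-bound ligand of CXCR6 that ADAM10 can shed. In myeloma, CCL3 secreted by the plasma cells is known as a factor that promotes osteoclast formation and bone loss. Many of these genes are induced through NF-kB and repressed by glucocorticoids in immune cells.

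The copies CCL3L1 and CCL3L3 are nearly identical to CCL3 in sequence, and CCL4L1 to CCL4, so a probe named for one may also capture RNA of another, and the gene behind each of these signals is uncertain. Promoter windows were at hand for 4 of the 9 members (RefSeq, GRCh38.p14, 250 bases before to 50 after the start), while CCL3L1, CCL4, CCL4L1, CCL5 and CXCL16 are named only. The windows of CCL3 (the first of 3), CCL3L3 and CXCL10 are shown because these genes changed together under Dex in MM1S cells, and capitals mark the matches to 4 motifs searched on both strands. The windows are CCL3 at chr17:36090094-36090393 on the minus strand, CCL3L3 at chr17:36196709-36197008 on the minus strand, and CXCL10 at chr4:76023448-76023747 on the minus strand.
CCL3: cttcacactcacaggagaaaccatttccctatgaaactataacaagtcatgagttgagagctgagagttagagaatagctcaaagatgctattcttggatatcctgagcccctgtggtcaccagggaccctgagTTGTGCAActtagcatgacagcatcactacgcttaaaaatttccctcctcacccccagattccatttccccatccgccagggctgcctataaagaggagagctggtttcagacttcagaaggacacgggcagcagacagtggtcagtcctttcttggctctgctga
CCL3L3: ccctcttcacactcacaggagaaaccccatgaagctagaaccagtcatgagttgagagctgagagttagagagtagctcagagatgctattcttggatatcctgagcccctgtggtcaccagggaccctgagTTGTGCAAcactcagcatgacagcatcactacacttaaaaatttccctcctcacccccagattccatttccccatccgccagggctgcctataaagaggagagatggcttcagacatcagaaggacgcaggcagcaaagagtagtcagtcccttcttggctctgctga
CXCL10: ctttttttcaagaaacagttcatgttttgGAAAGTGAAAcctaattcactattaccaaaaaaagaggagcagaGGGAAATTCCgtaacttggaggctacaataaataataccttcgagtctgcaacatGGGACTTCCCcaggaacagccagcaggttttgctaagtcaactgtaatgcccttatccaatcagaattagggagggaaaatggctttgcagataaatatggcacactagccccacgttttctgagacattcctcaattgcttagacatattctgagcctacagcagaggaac

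The windows of CCL3 and CCL3L3 were identical at 278 of 306 aligned columns (90.8%), and each held 1 match to the C/EBP motif TTGCNNAA and none to the others. The CXCL10 window held 2 matches to the NF-kB consensus, starting at positions −177 and −122 from the start, and 1 to the interferon-response motif GAAANNGAAA. Neither of the 2 CXCL13 windows nor the CCL3 and CCL3L3 windows held a match to NF-kB or to the AP-1 motif TGANTCA. Of 35116 promoters of this length, 11.3% held the NF-kB consensus, 7.71% the AP-1 motif, 3.57% the interferon-response motif and 10.5% the C/EBP motif. No 2 of these motifs overlapped in the windows shown, and a match describes letters only.

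Of 14 member probes, 11 of 8 genes were over background (detection p under 0.05) in at least 3 arrays and were tested in every comparison. The only CCL4 probe was over background on 0 of 24 arrays, one CCL4L1 probe (ILMN_1677591) on 1, and one CXCL16 probe (ILMN_1672278) on 0, so CCL4 has no tested probe and the other copies are read from the remaining ones. CXCL13 passed through 7 arrays, and the other 10 tested probes were over background on all 24. Values are log2 intensities after quantile normalization of the 24 arrays, and a probe is called at an adjusted p under 0.05 (limma, adjusted over all probes tested). A bulk array cannot tell fewer RNA-carrying cells from less RNA per cell. The plasma cell markers SDC1, TNFRSF17 and 6 more of 9 were over background on all 24 arrays, and CD27 on 0. Of 8 monocyte and macrophage markers CD68 was over background on 24 arrays, S100A9 on 20, FCGR3A on 15, CD14 on 11 and S100A8 on 0, of 7 T and NK cell markers CD2 on 13, GNLY on 9 and CD3D on 0, of 6 stromal and endothelial markers PECAM1 on 23, and of 4 B cell markers CR2 on 24 and PAX5 on 0. The receptor NR3C1 was over background on 12 of 12 MM1S arrays and 0 of 12 MM1R arrays, and FKBP5, a glucocorticoid target, lay between 13.16 and 13.40 in MM1S cells with Dex, against 9.75 to 10.22 in untreated MM1S cells.

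One array lay nearer to the arrays of another group than to those of its own label, and the reason was not tested. MM1S mimetic replicate 3 differed from the mimetic replicates 1 and 2 by an SD of log2 differences of 0.32 over all probes, and from the nearest mock array by 0.16, while mimetic replicates 1 and 2 differed from each other by 0.11. On each of the 11 tested chemokine probes it was closer to a mock array than to a mimetic array of its own group, and on 8 it lay within the range of the 3 mock arrays. The member counts for the mimetic in MM1S cells are therefore given with all arrays and without this one. Some single changes are given only without it, and the library stays the one labelled MM1S mimetic replicate 3.

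CCL3 was among the brightest probes of the array. On the 12 MM1R arrays it ranked between 2 and 23 from the top, at 14.81 to 14.97 on the log2 scale, 0.04 to 0.21 below the highest value of the array. It spanned 0.16 across those arrays and CCL3L3 spanned 0.17, whereas the CCL3L1 probe ILMN_1773245, which lay further below the top, spanned 1.17. A probe this close to the top has little room to show a rise. How far the top of the scale held down its values, or narrowed its differences in either direction, was not tested. Quantile normalization also set the highest value of every array to 15.01 and ties each value to its rank. CCL3 ranked 4 on each MM1R mock array and so read 14.93 on each. Its mean intensity before normalization ran from 29498 (untreated) to 31332 (mock) over the MM1R groups.

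**Figure D1:**
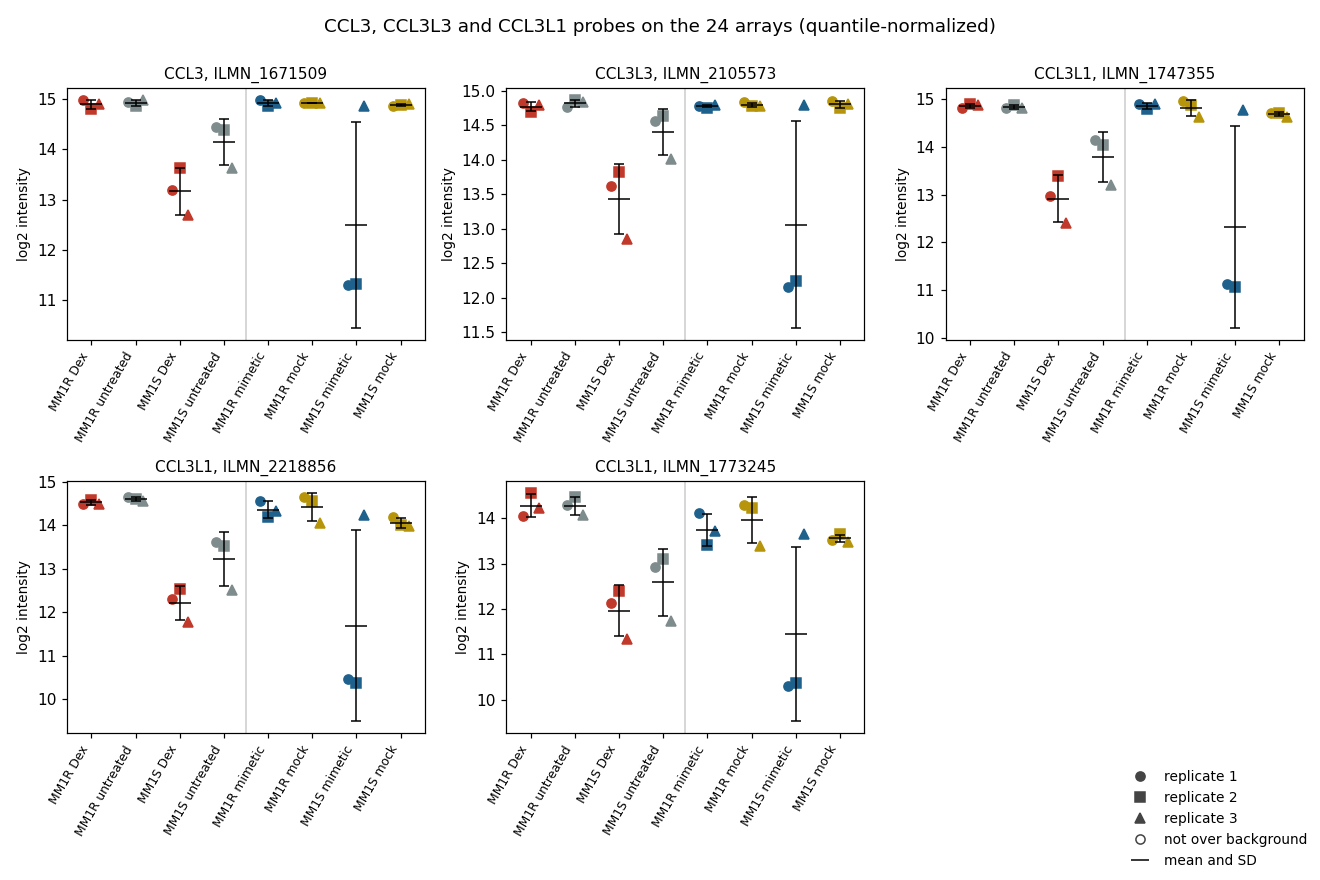
Log2 intensity of the probes of CCL3, CCL3L3 and CCL3L1 on the 24 arrays, by group on the horizontal axis, with the mean and SD of 3 replicates. The 12 MM1R arrays of CCL3 sit between 14.81 and 14.97, and 2 of the 3 MM1S mimetic arrays lie between 10.30 and 12.24 across the panels while replicate 3 lies with the mock arrays.

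Dex lowered CCL3 and its copies in MM1S cells, lowered CXCL10 and raised CXCL13. CCL3 read 13.19, 13.62 and 12.69 in MM1S cells with Dex, against 14.45, 14.38 and 13.62 in untreated MM1S cells. The 2 groups overlapped only through Dex replicate 2 and untreated replicate 3. The log2 change was −0.98 ± 0.18 (SE, as for every change below, n = 3 each), a 1.98-fold fall (adjusted p = 0.000443), and the mean intensity before normalization was 9096 with Dex and 15715 untreated.

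The copies moved alongside. CCL3L3 read 13.62, 13.82 and 12.85 with Dex, against 14.56, 14.64 and 14.01 untreated, with no overlap, and fell by 0.98 ± 0.17 on the log2 scale (adjusted p = 0.00027). Of the 3 CCL3L1 probes, ILMN_2218856 fell by 1.01 ± 0.20 (adjusted p = 0.000899) and ILMN_1747355 by 0.87 ± 0.20 (adjusted p = 0.00251). The third, ILMN_1773245, had a log2 change of −0.63 ± 0.26 that missed the threshold (adjusted p = 0.0965).

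CXCL10 fell and its groups did not overlap. It read 7.79, 7.96 and 7.75 with Dex, against 8.87, 9.01 and 8.36 untreated, a change of −0.91 ± 0.18 (1.88-fold, adjusted p = 0.000654). CXCL13 went the other way. It read 9.55, 9.25 and 8.65 with Dex, and 7.12, 7.04 and 7.06 in untreated MM1S cells, where none of 3 arrays was over background. The rise was 2.08 ± 0.14 on the log2 scale (adjusted p = 2.19e-09), and since the untreated level is only a bound, it is at least 3.98-fold. In the Dex experiment CXCL13 was over background on 1 array besides these 3 Dex arrays, so it passed the filter through the group in which it was high. With no filter on dim probes its change was also called.

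The other ligands did not pass the test under Dex in MM1S cells. CCL5 read 10.11, 10.00 and 9.82 with Dex, against 10.72, 10.65 and 9.86 untreated, on its brighter probe (−0.44 ± 0.26, adjusted p = 0.270). Replicate 3 was the lowest array of each of these groups. The CCL4L1 probe ILMN_1716276 read 9.67, 9.63 and 9.14 with Dex and 9.69, 9.87 and 8.86 untreated (0.00 ± 0.27), with a 95% interval from −0.55 to 0.56. CXCL16 had 9.40, 9.39 and 9.43 with Dex, against 9.24, 9.20 and 9.36 untreated, and its change of 0.14 ± 0.13 missed the threshold (adjusted p = 0.487) although the groups did not overlap.

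Altogether 6 of the 11 tested probes were called under Dex in MM1S cells, 1 higher (CXCL13) and 5 lower. The lower ones were CXCL10 and probes of the CCL3 family, which may capture one another's RNA. The called CCL3L1 and CCL3L3 probes correlated with CCL3 at r = 0.98 to 0.99 over 24 arrays. Counts of probes here and below can thus hold the same signal more than once. Over all 21486 probes tested, 11.9% were called higher and 11.2% lower. The groups did not overlap for 4 of the 11, against 39.4% of all probes, a share no lower than that of the members. The median change of the members was −0.63, against 0.01 over all probes. With all 24 arrays in 1 fit, which takes in the spread of the MM1S mimetic group, 2 members were called, and 4252 of all probes against 4958 without them.

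Summed signals of markers of other cell types differed with Dex in MM1S cells, but most of these markers lay near background. Over background on all 24 arrays were 1 of 4 B cell markers (CR2), 0 of 7 T and NK cell markers and 0 of 6 stromal and endothelial markers. The summed linear intensity of the B cell list was 740 to 826 with Dex and 639 to 693 untreated, that of the T and NK cell list 915 to 958 with Dex and 847 to 902 untreated, and that of the stromal and endothelial list 775 to 819 with Dex and 891 to 1029 untreated, each with no overlap. The monocyte and macrophage list summed to 1577 to 1732 with Dex and 1486 to 1592 untreated, which overlapped. Of all single probes tested, 39.4% did not overlap between these groups either. The part of these markers in the chemokine results was not tested.

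**Figure D2:**
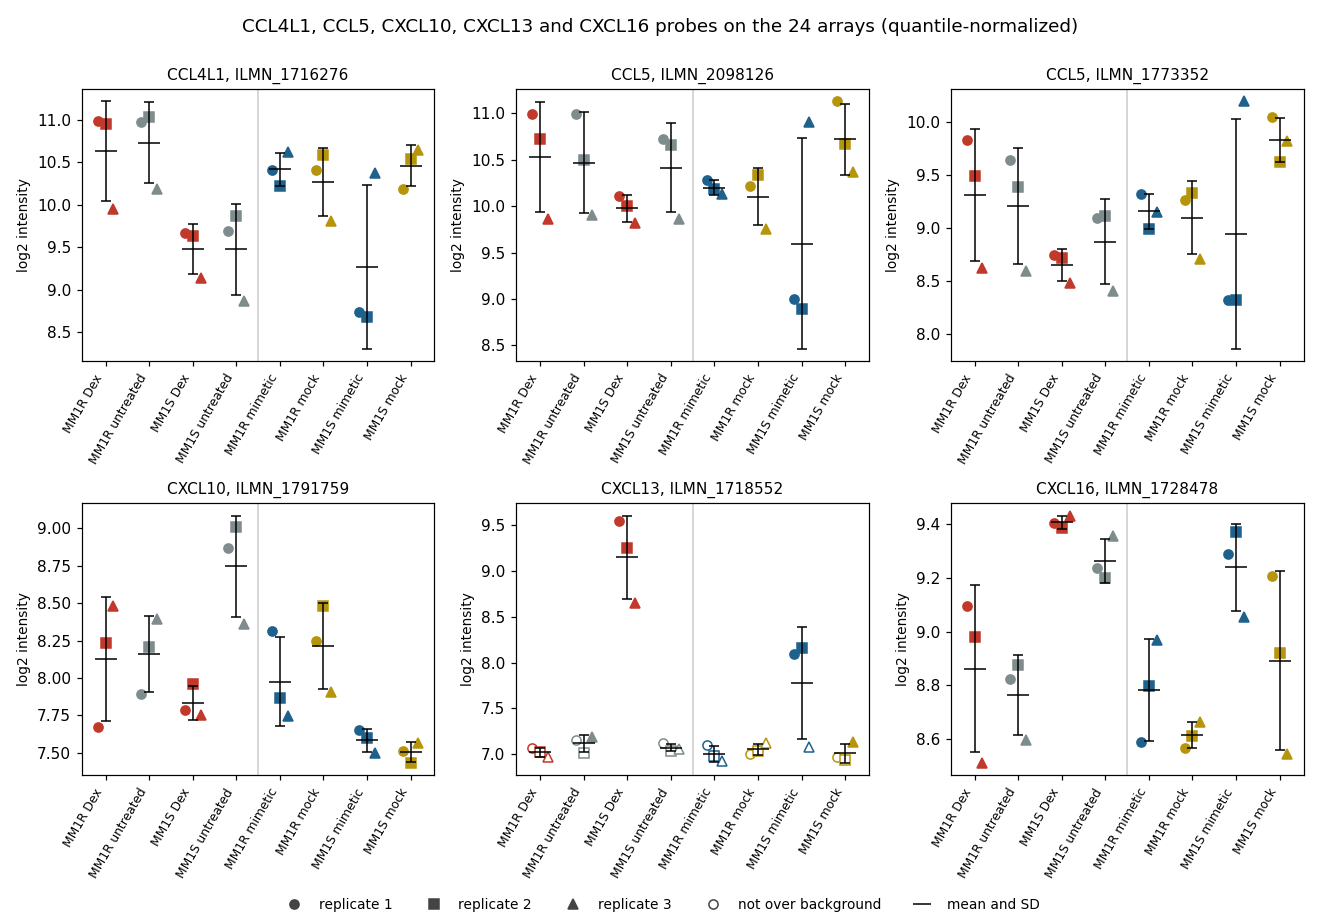
Log2 intensity of the tested CCL4L1, CCL5, CXCL10, CXCL13 and CXCL16 probes on the 24 arrays, by group, with the mean and SD of 3 replicates and open symbols for arrays not over background. CXCL13 is open on the 3 untreated MM1S arrays and lies between 8.65 and 9.55 in the 3 MM1S arrays with Dex.

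MM1R cells showed no call among the members under Dex. CCL3 read 14.97, 14.81 and 14.89 with Dex, against 14.95, 14.85 and 14.97 untreated (−0.03 ± 0.18, 95% interval −0.41 to 0.35). CXCL10 read 7.67, 8.23 and 8.48 with Dex and 7.89, 8.20 and 8.39 untreated (−0.03 ± 0.18), and CXCL13 stayed near background, at 7.07, 7.02 and 6.97 with Dex and 7.15, 7.01 and 7.19 untreated. Of the 11 probes, 0 were called by limma and 0 reached an unadjusted p under 0.05, where 0% of the 21486 probes were called and 957 had an unadjusted p under 0.05. CCL5 was again lowest in replicate 3, at 10.99, 10.73 and 9.86 with Dex, against 10.995, 10.50 and 9.90 untreated.

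The Dex effect itself differed between the lines for 6 of the 11 probes, 5 higher in MM1R than in MM1S and 1 lower. Among the 5, CCL3, CCL3L3 and CCL3L1 ILMN_1747355 ranked in the top 100 on 12 of 12 MM1R arrays, and ILMN_2218856 on 7. The CCL3L1 probe ILMN_1773245, in the top 100 on 1 of 12, was not called (0.63, adjusted p = 0.301, limma). How far the top of the scale limited the MM1R changes of these probes was not tested. Of all probes, 7.34% were called higher and 7.33% lower in this test. The difference (MM1R minus MM1S) was 0.95 ± 0.26 for CCL3 (adjusted p = 0.0164), 0.93 ± 0.24 for CCL3L3 (adjusted p = 0.0135) and 0.88 ± 0.25 for CXCL10 (adjusted p = 0.0214). CXCL13 differed by −2.18 ± 0.20 (adjusted p = 4.35e-07, limma). It was over background on the 3 MM1S Dex arrays and 1 untreated MM1R array only. It thus entered this test through the group in which it was high, and its level elsewhere is near background. The count moved with single arrays: 2 probes were called without MM1S untreated replicate 1 or without MM1S untreated replicate 2, and 3 without MM1R untreated replicate 1. Over all probes these fits called 2618, 2628 and 2697, against 3151 in the fit reported. Of 22 alternatives, CXCL13 was called under 22, CCL3L3 under 21, CCL3 under 19, CXCL10 under 18, and the CCL3L1 probes ILMN_2218856 under 13 and ILMN_1747355 under 11.

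Without treatment, the lines differed in the CCL3 family and in CCL4L1. CCL3 read 14.95, 14.85 and 14.97 in untreated MM1R cells, against 14.45, 14.38 and 13.62 in untreated MM1S cells (0.77 ± 0.18, adjusted p = 0.0114). The CCL3L1 probe ILMN_1773245 read 14.29, 14.47 and 14.07 in MM1R, against 12.92, 13.11 and 11.75 in MM1S, and was 3.21-fold higher (1.68 ± 0.26, adjusted p = 0.000287). ILMN_2218856 was 2.62-fold and ILMN_1747355 2.06-fold higher in MM1R. CCL4L1 read 10.97, 11.03 and 10.18 in MM1R, against 9.69, 9.87 and 8.86 in MM1S, without overlap (2.38-fold, adjusted p = 0.00532).

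Other members were lower in MM1R or did not pass. CXCL16 read 8.82, 8.88 and 8.59 in untreated MM1R cells, against 9.24, 9.20 and 9.36 in untreated MM1S cells (−0.50 ± 0.13, adjusted p = 0.0181). CXCL10 was lower in MM1R, with a log2 difference of −0.58 ± 0.18 (adjusted p = 0.0467), with 7.89, 8.20 and 8.39 in MM1R against 8.87, 9.01 and 8.36 in MM1S, so the groups overlapped. That call held under 12 of 23 alternatives, with an adjusted p (limma) of up to 0.225. It was lost, among others, without MM1R untreated replicate 1 or 2, without MM1S untreated replicate 1 or 2, and without MM1S Dex replicate 1, 2 or 3. CCL3L3 (0.42 ± 0.17, adjusted p = 0.157) and both CCL5 probes missed the threshold. Altogether 7 of 11 probes were called, 5 higher and 2 lower in MM1R, where 4.22% of all probes were called higher and 3.90% lower. The groups did not overlap for 7 of 11, against 27.9% of all probes. Without MM1S untreated replicate 3, which read lowest of its group on CCL3, 4 were called. Over all probes 939 were then called, against 1745 in the fit reported.

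**Figure D3:**
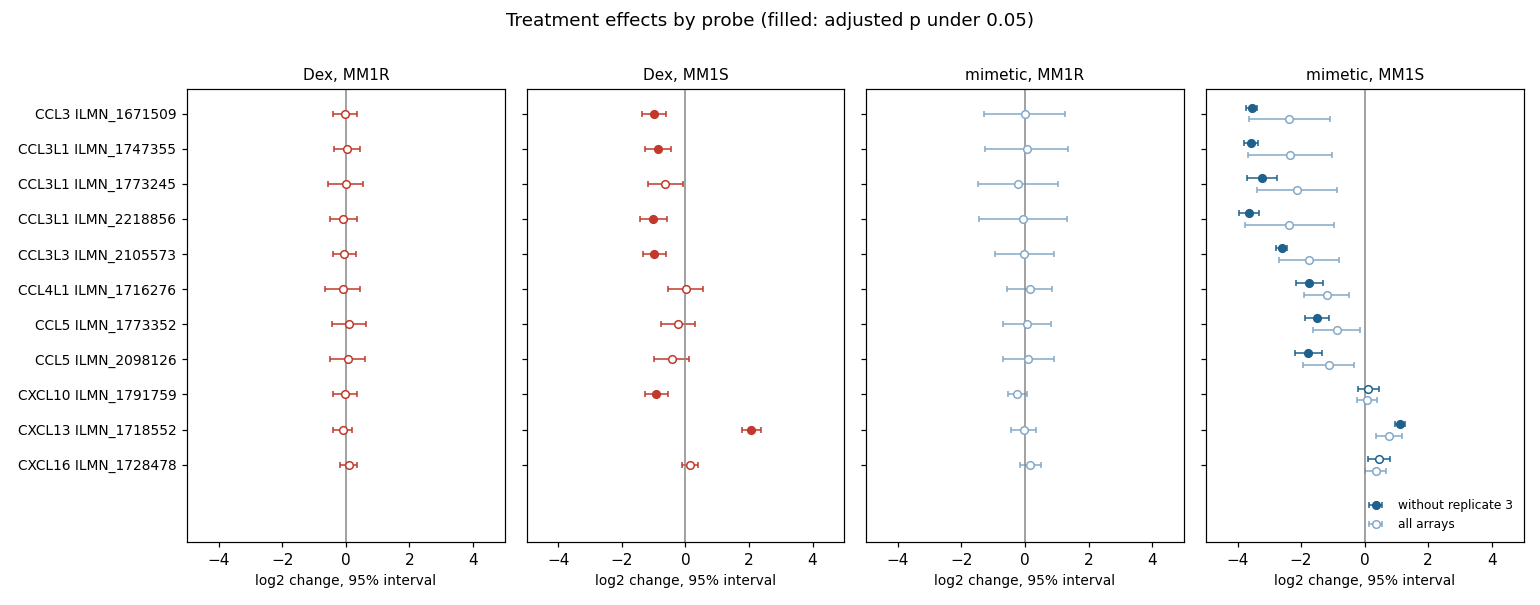
Log2 change with its 95% interval for each of the 11 tested probes, for the Dex and the mimetic contrast of each line, with red for Dex, light blue for the mimetic with all arrays and dark blue without MM1S mimetic replicate 3, filled where the adjusted p was under 0.05. In MM1S cells the mimetic contrast lies near −3.56 for CCL3 without replicate 3 and near −2.38 with all arrays, and no marker is filled in MM1R cells.

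In MM1S cells the CCL3 family, CCL4L1 and CCL5 were low in mimetic replicates 1 and 2 and near the mock level in replicate 3. With all arrays none of them was called, and other fits that kept replicate 3 called 0 to 10 of the 11 members. Over all probes those other fits called 0 (only the groups compared) to 7201 (array weights), against 137 in the fit reported. CCL3 read 11.31, 11.32 and 14.87 in the mimetic arrays, against 14.86, 14.87 and 14.89 in mock arrays. With all arrays its change was −2.38 ± 0.60 (adjusted p = 0.0662), and without replicate 3 it was −3.56 ± 0.08, an 11.8-fold fall of the measured values (adjusted p = 4.08e-14). The mock arrays had CCL3 at ranks 11, 9 and 6 from the top of the array, and how far the top of the scale limits this fold was not tested. The 3 CCL3L1 probes fell 9.33-fold to 12.4-fold without replicate 3, and had log2 changes of −2.12 to −2.37 with all arrays. CCL3L3 fell 6.11-fold without replicate 3, and changed by −1.75 with all arrays (adjusted p = 0.0662, limma). It read 12.15, 12.24 and 14.79 in mimetic arrays, against 14.85, 14.76 and 14.81 in mock arrays.

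CCL4L1 and CCL5, of lower signal, moved the same way. With all arrays the log2 change was −1.19 for CCL4L1, and −1.12 and −0.88 for the brighter and the other CCL5 probe. That of CXCL13 was 0.77, and none of these was called (adjusted p of 0.0627 or higher, limma). CCL4L1 read 8.73, 8.68 and 10.37 with the mimetic, against 10.18, 10.54 and 10.64 in mock arrays, and fell 3.35-fold without replicate 3 (adjusted p = 1.84e-05). The brighter CCL5 probe read 8.997, 8.89 and 10.90 with the mimetic, against 11.13, 10.67 and 10.36 in mock arrays (3.43-fold lower without replicate 3, adjusted p = 1.34e-05), and the other CCL5 probe fell 2.85-fold. CXCL13 went up, at 8.09, 8.16 and 7.07 with the mimetic and 6.96, 6.93 and 7.13 in mock arrays (1.12 ± 0.08 without replicate 3, adjusted p = 6.9e-08). Only 1 of the 3 mock arrays was over background, so the mock level is in part a bound, and CXCL13 passed the filter mainly through the 2 mimetic arrays. CXCL10 changed by 0.12 ± 0.16 without replicate 3, with 7.65, 7.60 and 7.50 in mimetic arrays and 7.51, 7.43 and 7.57 in mock arrays, so no call was made. CXCL16 read 9.29, 9.37 and 9.06 with the mimetic, against 9.21, 8.92 and 8.54 in mock arrays (0.44 ± 0.16 without replicate 3, adjusted p = 0.0816).

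With all arrays, 0 of the 11 probes were called by limma in MM1S cells, where 0.137% of all probes were called higher and 0.449% lower. An unadjusted p under 0.05 was reached by 10 of the 11, against 18.9% of all probes. Without replicate 3, 9 were called, 1 higher and 8 lower, where 7.38% of all probes were called higher and 8.15% lower. With all arrays the groups did not overlap for 0 of 11, against 20.1% of all probes. Without replicate 3 the groups, of 2 and 3 arrays, did not overlap for 11 of 11, against 48.3% of all probes. Replicate 3 was closest to a mock array on each of the 11, so leaving it out favours this separation. The median change of the members was −1.19 with all arrays and −1.78 without replicate 3. The 9 calls then rest on 2 mimetic arrays. The glucocorticoid target FKBP5 moved with the same arrays, at 12.91, 13.12 and 9.34 in mimetic replicates 1, 2 and 3, against 9.57, 9.39 and 9.33 in mock arrays, so that replicates 1 and 2 lay near the 13.16 to 13.40 of MM1S cells with Dex. TSC22D3, another such target, read 12.95, 12.96 and 10.83 with the mimetic, against 10.52, 11.79 and 12.13 in mock arrays. The part of whatever sets these values in the chemokine results was not tested. The stromal and endothelial markers summed to 806 to 1083 with the mimetic and 1070 to 1101 in mock arrays, the monocyte and macrophage markers to 1364 to 1621 with the mimetic and 1324 to 1602 in mock arrays, and the part of these was not tested.

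No member was called in MM1R cells with the mimetic, where 0% of 23377 probes were called. CCL3 read 14.97, 14.85 and 14.91 with the mimetic, against 14.93, 14.93 and 14.93 in mock arrays, a change of −0.02 ± 0.60 with all arrays (95% interval −1.29 to 1.26) and −0.02 ± 0.07 without MM1S mimetic replicate 3 (−0.16 to 0.13). CCL5 read 10.28, 10.18 and 10.14 with the mimetic, against 10.22, 10.34 and 9.76 in mock arrays. CXCL10 had the lowest p of the 11 (−0.24 ± 0.14, unadjusted p = 0.116, limma), and 0 reached an unadjusted p under 0.05, against 2.78% of all probes. CXCL13 read 7.10, 6.98 and 6.93 with the mimetic and 7.001, 7.03 and 7.12 in mock arrays, none over background.

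The mimetic effect differed between the lines for 0 of 11 probes with all arrays, where 0% of all probes were called. An unadjusted p under 0.05 was reached by 8 members, against 12.6% of all probes. Without MM1S mimetic replicate 3, 9 were called, 8 higher and 1 lower in MM1R than in MM1S, where 4.34% of all probes were called higher and 3.16% lower. The difference was then 3.54 ± 0.10 for CCL3, 1.89 ± 0.27 for CCL4L1 and −1.17 ± 0.10 for CXCL13. CXCL13 entered this test mainly through MM1S mimetic arrays in which it was high. The Dex and mimetic changes of CXCL10 in MM1S cells were −0.91 ± 0.18 and, without replicate 3, 0.12 ± 0.16, a difference that was not tested. They start from different levels, a mean of 8.75 in untreated and 7.50 in mock MM1S cells. That mock level lay below the 7.83 of MM1S cells with Dex. It was also near the lowest value over background on the MM1S mock arrays (7.11 to 7.13). How far this left room for a fall with the mimetic was not tested.

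The mock and untreated arrays belong to different experiments, so transfection and experiment cannot be told apart in their comparison. In MM1S cells CXCL10 read 7.51, 7.43 and 7.57 in mock arrays, against 8.87, 9.01 and 8.36 untreated (−1.24 ± 0.18, 2.36-fold, adjusted p = 1.74e-05), with no overlap. CCL4L1 (0.98 ± 0.33, adjusted p = 0.0311) and the CCL5 probe ILMN_1773352 (0.96 ± 0.34, adjusted p = 0.0384) were higher in mock arrays. With all arrays 3 of 11 were called, 2 higher and 1 lower, where 13.5% of all probes were called higher and 12.5% lower. The groups did not overlap for 8 of 11, against 42.9% of all probes. Without MM1S mimetic replicate 3, which shares the fit, 9 were called, 7 higher and 2 lower, CCL3 among them (0.73 ± 0.16, adjusted p = 0.000848), where 14.6% of all probes were called higher and 13.5% lower. The all-array count was 1 without MM1S mock replicate 2, mock replicate 3 or untreated replicate 3. Over all probes 5214, 4887 and 5356 were then called, against 6847 in the fit reported.

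In MM1R cells 0 of 11 members were called between mock and untreated arrays, where 10.1% of all probes were called higher and 9.57% lower. An unadjusted p under 0.05 (limma) was reached by 0 members, against 32.5% of all probes. The order of the lines in CXCL10 was not the same in the 2 experiments. It was higher in MM1R than in MM1S among mock arrays, with 8.25, 8.48 and 7.91 in MM1R, against 7.51, 7.43 and 7.57 in MM1S (0.71 ± 0.14, adjusted p = 0.00191), while among untreated arrays its lower value in MM1R was called under only 12 of 23 alternatives. A test of that change in order was not run.

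Between mock arrays of the lines, CXCL10 was the 1 called of 11, where 14.4% of all probes were called higher and 16.2% lower. CCL3 missed the threshold there, with 14.93, 14.93 and 14.93 in MM1R, against 14.86, 14.87 and 14.89 in MM1S (0.05 ± 0.60 with all arrays and 0.05 ± 0.07 without MM1S mimetic replicate 3). Without that array 4 probes were called, 2 higher and 2 lower, where 16.4% of all probes were called higher and 18.9% lower. The 2 that were lower were the CCL5 probes, at 10.22, 10.34 and 9.76 in MM1R, against 11.13, 10.67 and 10.36 in MM1S on the brighter one (−0.62 ± 0.18, adjusted p = 0.0133). Without MM1S mock replicate 3, 2 were called, of 4808 over all probes, against 7139 in the fit reported.

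**Figure D4:**
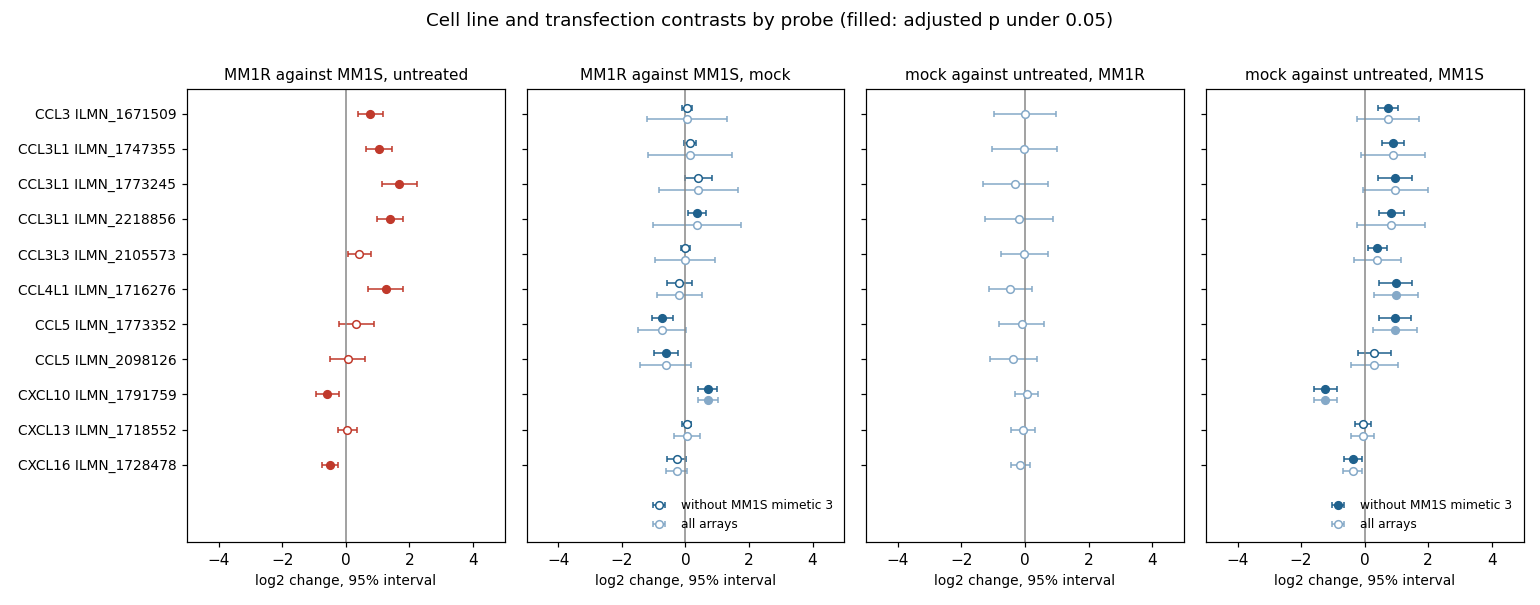
Log2 change with its 95% interval for each of the 11 tested probes in the contrasts of MM1R against MM1S and of mock against untreated cells, with red for the Dex experiment, light blue for all arrays and dark blue without MM1S mimetic replicate 3, filled where the adjusted p was under 0.05. CXCL10 is at −0.58 for MM1R against MM1S in untreated cells and at 0.71 in mock cells, and no marker is filled for mock against untreated in MM1R cells.

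Genes around the ligands were read from lists chosen with earlier results known, and describe these arrays only. Among 21 chemokine receptors on the array, 13 had tested probes in the Dex experiment, and of their 20 probes 3 rose and 1 fell in MM1S cells with Dex (median change 0.04, against 0.01 over all probes). CXCR4, the receptor of CXCL12, rose on both of its probes (2.08 ± 0.15 and 2.25 ± 0.10), and CXCR3, the receptor of CXCL10, fell (−1.12 ± 0.16). With all arrays, 0 probes of this list or of those below were called with the mimetic in MM1S cells. Over all probes, 0.137% were then called higher and 0.449% lower. Without MM1S mimetic replicate 3, which leaves 2 mimetic arrays, the mimetic raised 4 and lowered 1 of 20 receptor probes. CXCR4 again rose on both probes (2.56 ± 0.12 and 2.35 ± 0.12), as did CX3CR1 (2.59 ± 0.15 and 0.65 ± 0.13), and CXCR3 fell (−0.74 ± 0.15).

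Genes of cytokine mRNA decay were called in both directions. In MM1S cells, Dex raised 4 and lowered 2 of the list's 12 probes (9 genes), with higher values for ZC3H12A, an RNase that degrades cytokine mRNAs (2.77 ± 0.15), ZFP36L2 (1.13 ± 0.10) and ZFP36 (0.74 ± 0.13), which bind AU-rich elements. The mimetic, without replicate 3, raised 2 and lowered 2, with ZC3H12A at 1.93 ± 0.19 and ZFP36L2 at 1.55 ± 0.14 higher and ZFP36L1 at −0.60 ± 0.11 lower. The list's median change was −0.08 with Dex and 0.00 with the mimetic, against 0.01 and 0.01 over all probes.

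Dex raised 3 and lowered 1 of 19 NF-kB probes in MM1S cells. NFKBIA, the inhibitor that holds NF-kB in the cytoplasm, rose by 0.84 ± 0.15 and TNFAIP3, a feedback inhibitor, by 0.82 ± 0.12, while CHUK fell (−0.46 ± 0.10). With the mimetic, without replicate 3, 1 rose (NFKBIA, 0.79 ± 0.15) and 3 of 20 fell, RELB among them (−0.59 ± 0.17). Of 19 interferon pathway probes, 7 rose and 1 fell with Dex, with IFNGR1, a chain of the interferon gamma receptor, at 1.08 ± 0.11 and 1 of 2 IFNAR2 probes, a chain of the type I interferon receptor, at −0.55 ± 0.10. With the mimetic, without replicate 3, 4 rose and 1 fell, IFNGR1 being higher (0.74 ± 0.13) and the same IFNAR2 probe lower (−1.06 ± 0.13).

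Only 6 of 37 other chemokine ligands on the array had a tested probe in the Dex experiment, and 1 fell (CCL14, −0.36 ± 0.12). CCL14 was also the 1 of 11 such probes to fall with the mimetic, without replicate 3 (−1.46 ± 0.26). Both tested ADAM10 probes, the protease that sheds CXCL16, fell with Dex (−0.31 ± 0.11 and −0.31 ± 0.10), 2 of 6 processing-enzyme probes. Over all probes in the same comparisons 11.9% rose and 11.2% fell with Dex, and 7.38% rose and 8.15% fell with the mimetic without replicate 3. In MM1R cells 0 list probes were called with Dex and 0 with the mimetic.

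Over the 8 group means, the genes most like CCL3 were its copies CCL3L1 (r = 0.995) and CCL3L3 (r = 0.995), followed by FDPS (r = 0.96), among 8357 candidates. CCL4L1 was nearest to ATP6V0A1 (r = 0.971), CCL5 to GMFB (r = 0.972), CXCL10 to DEPP1 (r = 0.989) and CXCL16 to ISCA2 (r = 0.987). These are descriptions over 8 points, which share the low MM1S mimetic mean and the 2 experiments.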

How the data were processed

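RNA from MM1R and MM1S cells was measured on 24 HumanHT-12 arrays (24 samples, 3 per group). The authors read bead intensities with beadarray 2.8.1 and deposited log2 values before normalization, with a detection p-value per probe deposited by the authors beside each one. A table of log2 values after the authors' quantile normalization was also deposited, and lay a median of 0.000138 from the values used here. The submitters' notes name limma 3.14.1. No sequencing depth applies: 17059 to 21328 probes were over background per array, and 3 arrays per group limit the precision.

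Here the log2 values were quantile normalized over 24 arrays with limma 3.58.1 (R 4.3.3). A probe entered a fit if 3 or more of its arrays had a detection p-value under 0.05, and 4 probes with a missing value were left out. Each experiment was fitted as 4 groups (lmFit, eBayes with trend), and mock against untreated as 8 groups. P-values were adjusted by Benjamini-Hochberg over all probes tested, and a probe was called at 0.05. Values not over background on every array of a group give a lower bound. Fits were tested on simulated data. Named genes were all members, and from each list at most 4 genes, ranked by adjusted p, plus at most 2 of opposite direction. Members, lists, motifs and tests were chosen with earlier results of these data known. The replicate numbers were checked for pairing by correlating the deviations of same-numbered arrays, and no comparison had every correlation over 0.1. Figures were drawn with matplotlib 3.10.9.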

Additional observations from a re-analysis of the deposited data

Results flagged for a closer look

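The Dex effect differed between the lines, by a test of the difference itself (MM1R minus MM1S, limma), for CCL3 (0.95), CCL3L1 ILMN_1747355 (0.90), CCL3L1 ILMN_2218856 (0.93), CCL3L3 (0.93), CXCL10 (0.88) and CXCL13 (−2.18), on the log2 scale. Without MM1S mimetic replicate 3, the mimetic effect differed in the same kind of test for CCL3 (3.54), CCL3L1 ILMN_1747355 (3.62), CCL3L1 ILMN_1773245 (3.00), CCL3L1 ILMN_2218856 (3.57), CCL3L3 (2.59), CCL4L1 (1.89), CCL5 ILMN_1773352 (1.57), CCL5 ILMN_2098126 (1.87) and CXCL13 (−1.17). With all arrays 0 of these 9 passed. CXCL13 entered both tests mainly through the treated MM1S arrays in which it was high, and lay near background in most other arrays. Of the Dex differences, the CCL3L1 probes ILMN_1747355 and ILMN_2218856 held under 11 and 13 of 22 alternatives. No gap test for outlying values was run in groups of 3, and MM1S mimetic replicate 3 was found from whole-array distances.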

How the results depend on the processing

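No called change of a member probe turned its sign under any alternative run. With all 24 arrays in 1 fit, 2 probes were called for Dex in MM1S cells, 2 for the difference of the Dex effect, 7 for the mimetic in MM1S cells and 1 for MM1R against MM1S untreated cells, of 4252, 2348, 1652 and 1006 called over all probes (4958, 3151, 137 and 1745 in the fits reported). With a fold over 2 as well, the counts were 2, 1, 4, 0 and 1 for Dex in MM1S, the Dex difference, MM1R against MM1S untreated, MM1R against MM1S mock, and mock against untreated MM1S, of 451, 504, 102, 525 and 261 over all probes. Median centring gave 2 for the mimetic in MM1S, 3 between mock lines and 6 for mock against untreated MM1S, of 199, 7356 and 10486 over all probes. Array weights gave 10 for the mimetic in MM1S, 10 for its difference and 6 for mock against untreated MM1S, of 7201, 4055 and 9462 over all probes (137, 0 and 6847 in the fits reported), so calls rose over the whole array. Fits on only the groups compared gave 4 between mock lines and 8 for mock against untreated MM1S, of 7709 and 7427 over all probes, and no filter on dim probes gave 6 of 423 for the mimetic in MM1S.

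Leaving out each array in turn gave 6 to 7 calls for Dex in MM1S, 2 to 7 for the Dex difference, 0 to 9 for the mimetic in MM1S and 0 to 9 for its difference (9 in both without MM1S mimetic replicate 3), 4 to 7 between untreated lines, 1 to 4 between mock lines, and 1 to 9 for mock against untreated MM1S. Over all probes these fits called 3700 to 5541 for Dex in MM1S and 2348 to 3200 for the Dex difference. They called 0 to 3576 for the mimetic in MM1S and 0 to 1726 for its difference. Between untreated lines they called 935 to 2312, between mock lines 4346 to 8127, and for mock against untreated MM1S 4887 to 7339. The 3 comparisons within MM1R had 0 member calls throughout. Over all probes, Dex and the mimetic in MM1R gave 0 as well, and mock against untreated MM1R gave 3016 to 5796.

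Same-numbered arrays did not deviate together by over 0.1 in every pair, so the reported fits left the numbers out. Correlations were 0.08, 0.10 and 0.22 for Dex in MM1S, and 0.06, 0.37 and 0.29 for Dex in MM1R by title numbers. They were −0.50 to 0.56 for the mimetic in MM1R. These values do not show that same-numbered arrays are unpaired. With a replicate block by title numbers, 8 probes were called for Dex in MM1S and 7 for the mimetic in MM1S, and by description numbers, in which untreated MM1R arrays are numbered otherwise, 7 and 7. Over all probes these fits called 5102 and 1034 by title numbers, and 4758 and 1034 by description numbers. For the 2 differences, a fit on only the groups compared is the one reported, and normalizing each experiment on its own was not run across experiments. Array signal limits CXCL13, over background on 7 of 24 arrays, and CCL3 at the top of the scale.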
